A study of Mus musculus with 6 samples.

Results

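Plasma carrier and iron-handling proteins are secreted mainly by the liver and circulate in blood, where they bind hormones, vitamins, metals, haem and free haemoglobin. Some of them are also made outside the liver, among them haptoglobin and transferrin, and fat is a further source of haptoglobin and of retinol-binding protein. Iron leaves cells through ferroportin, is carried by transferrin to the transferrin receptor, and its release into plasma is held back by hepcidin, a peptide hormone of hepatocytes. The adrenal gland is not a known major source of these proteins, and their expression was followed here in adrenal RNA.

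The genes were 10 by name, chosen for their function and with earlier results of these data known. They were albumin (Alb), transthyretin (Ttr), retinol-binding protein 4 (Rbp4), hemopexin (Hpx), haptoglobin (Hp), transferrin (Trf), hepcidin (Hamp), the alpha-1-microglobulin and bikunin precursor (Ambp), fetuin-A (Ahsg) and the vitamin D-binding protein (Gc). A gene was measured by every probe set whose annotation gave its symbol and no other. Of the 10 genes, 9 had such a probe set, with 1 each, and all 9 passed the filter on low values, among 14727 genes tested. The expression of Gc was not analysed here. The 2 groups were adult female C57Bl/6J mice of 21 weeks. The mothers of the CGP group were given CGP 39551 orally, 5 mg/kg, from pregnancy up to weaning, a compound that blocks NMDA (N-methyl-D-aspartate) glutamate receptors. The labels name the other group only as control and do not say what its mothers received. Each group had 3 whole-transcript arrays of adrenal RNA pooled from 18 mice, and no label says whether the 3 arrays carried separate pools, so p-values measure the spread between arrays, which may be technical.

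All values are deposited log2 expression levels, on which a difference of 1 is a doubling, and differences are CGP minus control. A change denotes an adjusted p under 0.05 in limma over all 16034 probe sets tested. At this threshold 3.53% of the probe sets were called, 1.59% lower and 1.94% higher in the CGP group. Adrenal markers were read at high levels. The median level of 10 cortex genes was 13.1 to 13.2 on the control arrays and 13.2 to 13.3 on the CGP arrays. That of 9 medulla genes was 12.2 to 12.4 on all 6. Markers of hepatocytes and of fat were also read, with medians of 9.48 to 9.54 and of 11.2 on the control arrays. The share of adrenal cells in the RNA was not tested. Array-to-array differences, taken over all tested probe sets, had a standard deviation of 0.135 to 0.177 among the controls, 0.103 to 0.128 in the CGP group and 0.160 to 0.218 between groups, and by this measure control array 1 was closer to each of the 3 CGP arrays (0.174, 0.160 and 0.163) than it was to control array 2 (0.177). For the 9 genes the mean absolute difference was at most 0.0414 between controls and 0.0874 between CGP arrays, and at least 0.617 between groups. As 7 of the 9 were called lower, this average follows from those calls and is no further check on the arrays.

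Of the 9 genes, 7 fell in the CGP group, 2 gave no call and 0 rose (limma, unadjusted p under 0.05 for 8 lower and 0 higher). Hepcidin, the alpha-1-microglobulin precursor and hemopexin fell most, to 45.6%, 48.1% and 49.8% of the control level. Transthyretin, fetuin-A, retinol-binding protein and albumin fell less, and transferrin and haptoglobin stood near their control levels. The median difference of the 9 genes was -0.65 against -0.01 over all probe sets tested. The groups did not overlap for 8 of the 9, all lower in the CGP group, where 26.3% of all probe sets tested had no overlap in either direction. The same count of 7 lower genes was obtained in each of 6 further fits that left out 1 array at a time.

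**Figure D1:**
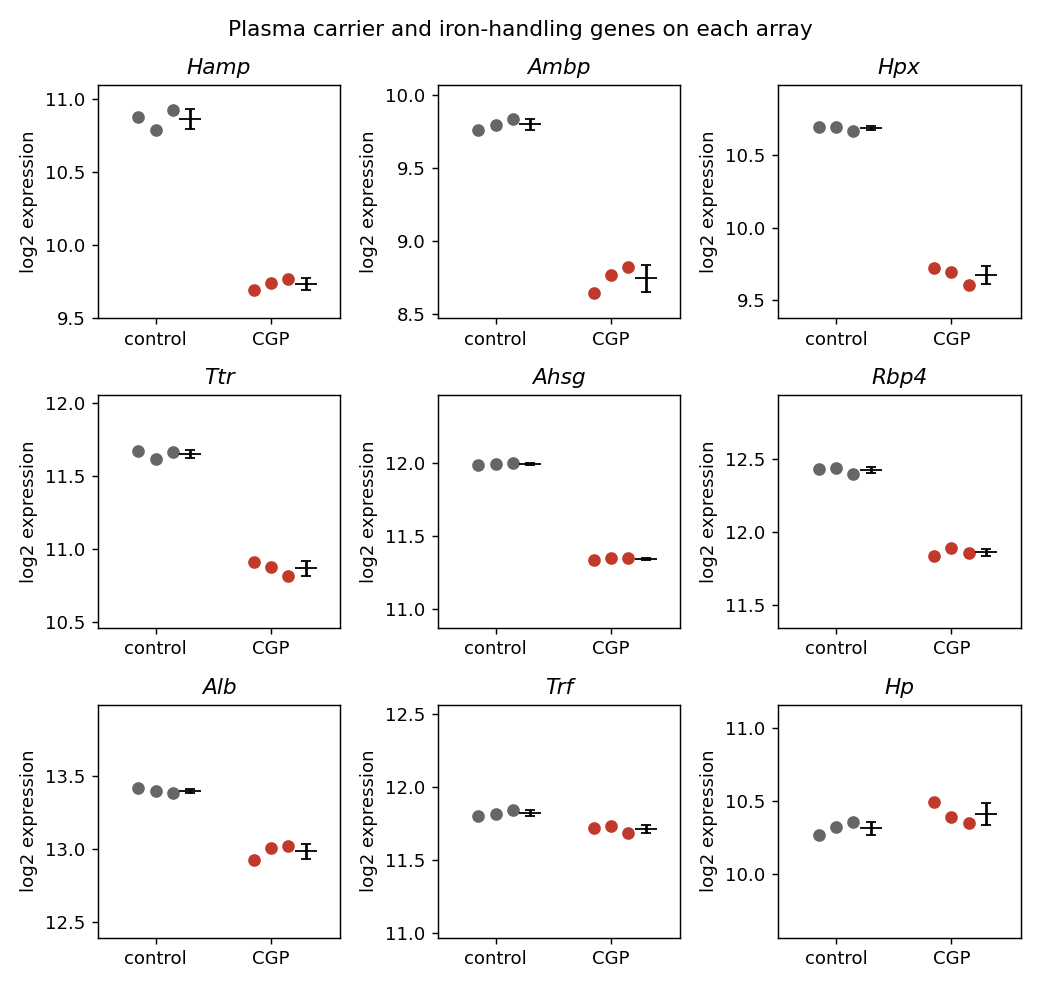
Log2 expression (vertical axis, the same span of 1.6 in each panel) of the 9 genes on the 3 control arrays (grey) and the 3 CGP arrays (red), ordered by difference, and black marks give each group's mean and SD. The groups lie far apart for Hamp, Ambp and Hpx, close together for Trf, and overlap for Hp. Levels of different genes are not comparable.

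Hepcidin, the hormone that closes the iron exporter ferroportin, had the largest difference of the 9. Hamp measured 10.88, 10.79 and 10.93 on the control arrays and 9.69, 9.74 and 9.77 on the CGP arrays. Every CGP value was thus more than 1 log2 unit under the lowest control (gap 1.02). The fall was 2.19-fold (difference -1.13, SE 0.05, limma adjusted p = 4.72e-05), which was rank 14 from the lowest of all 16034 probe sets. Mice have a further hepcidin gene, Hamp2, whose sequence is close to that of Hamp, so the probe sets of both may share signal. Hamp2 measured 7.37, 7.67 and 7.74 in the controls and 7.10, 6.85 and 6.91 in the CGP group and fell by 0.64 (SE 0.11, limma adjusted p = 0.0186), without overlap. The call of Hamp2 was lost without control 2, control 3, CGP 2 or CGP 3 (adjusted p 0.0614 to 0.0996), whereas that of Hamp was kept with each array left out.

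The Ambp transcript encodes a precursor that is cut into alpha-1-microglobulin, a binder of haem and small oxidants, and bikunin, a protease inhibitor. Ambp measured 9.76, 9.80 and 9.84 in the controls and 8.64, 8.77 and 8.82 in the CGP group. The CGP arrays were all lower and spread more than the controls (SD 0.0927 against 0.0368). It fell by 1.06 (SE 0.06, limma adjusted p = 8.46e-05), or 2.08-fold. In plasma, bikunin is joined to some heavy chains of the inter-alpha-inhibitor family. The 4 genes of this family that were listed fell as well, by 0.53 (Itih1), 0.61 (Itih2), 0.63 (Itih3) and 0.53 (Itih4), with limma adjusted p of 0.0066, 0.000332, 0.00026 and 0.000432. The groups did not overlap for any of the 4. Over all probe sets tested, 26.3% had no overlap and 1.59% were called lower. The 4 falls were smaller than that of Ambp and than the median of the hepatocyte markers given below (-0.91). The difference between Ambp and these genes was not tested.

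Fetuin-A, a glycoprotein that keeps calcium phosphate in solution, was the most uniform of the 9. Ahsg measured 11.99, 11.99 and 12.00 in the controls and 11.34, 11.35 and 11.35 in the CGP group. The spread within groups was SD 0.00727 and 0.00612, and the groups were 0.64 apart at their nearest. It fell by 0.65 (SE 0.04, limma adjusted p = 0.000125), or 1.57-fold.

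Hemopexin binds free haem and haptoglobin binds free haemoglobin, and both deliver their load for breakdown. Hpx measured 10.69, 10.69 and 10.67 in the controls and 9.72, 9.70 and 9.61 in the CGP group. The nearest arrays of the groups were 0.944 apart. It fell 2.01-fold (difference -1.01, SE 0.05, limma adjusted p = 5.76e-05). Hp measured 10.26, 10.32 and 10.35 in the controls and 10.49, 10.39 and 10.35 in the CGP group. Haptoglobin was the 1 gene of the 9 whose groups overlapped, as CGP array 3 lay just under control array 3, and its difference was positive and did not pass the test (0.10, 95% interval -0.03 to 0.22, limma adjusted p = 0.377). The log2 ratio of Hp to Hpx was -0.43, -0.37 and -0.31 on the control arrays and 0.77, 0.69 and 0.74 on the CGP arrays. Only its difference between groups can be read, since levels of different probe sets are not comparable. The ratio was higher by 1.10 in the CGP group with no overlap (exact permutation test, two-sided, p = 0.1, the smallest that 3 against 3 arrays allow, and 0.1 when adjusted over the 2 pairs compared). With the Hpx groups 0.944 apart and Hp near its control level, this separation follows from the values above, so the test adds no support.

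Transferrin, the iron carrier of plasma, is made by liver and also by other cells, glia among them. Trf measured 11.80, 11.81 and 11.84 in the controls and 11.72, 11.73 and 11.68 in the CGP group. The CGP arrays were all lower, but the groups were only 0.0682 apart at their nearest. The difference of -0.11 (SE 0.04, 95% interval -0.21 to -0.01) did not pass the test (limma adjusted p = 0.226, unadjusted p = 0.0372). With a variance trend and robust prior it did, as lower (adjusted p = 0.0413).

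Transthyretin carries thyroid hormone and, joined to retinol-binding protein, holds retinol in the circulation. Ttr measured 11.67, 11.62 and 11.66 in the controls and 10.91, 10.87 and 10.81 in the CGP group. All CGP values were at least 0.707 lower. It fell by 0.79 (SE 0.05, limma adjusted p = 0.000112), or 1.72-fold. Rbp4 measured 12.44, 12.44 and 12.40 in the controls and 11.84, 11.89 and 11.86 in the CGP group. It fell by 0.57 (SE 0.04, limma adjusted p = 0.000308), or 1.48-fold, again without overlap. The log2 ratio of Rbp4 to Ttr was 0.77, 0.82 and 0.74 in the controls and 0.93, 1.01 and 1.05 in the CGP group. It was higher by 0.22 (exact permutation test, two-sided, p = 0.1, the smallest that 3 against 3 arrays allow), with every CGP ratio above every control ratio.

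Albumin, the main protein of plasma and carrier of fatty acids, steroids and many drugs, had the smallest fall of the 7. Alb measured 13.42, 13.40 and 13.39 in the controls and 12.92, 13.00 and 13.02 in the CGP group. The groups were 0.364 apart at their nearest. It fell by 0.42 (SE 0.05, limma adjusted p = 0.00256), or 1.33-fold. Its mean signal lay at percentile 99.5 of all probe sets tested, near the top of a scale that ended at 14.6, and the part of this position in the small fold was not tested. Against a minimum change of 1.2-fold it did not pass (adjusted p = 0.477), the only one of the 7 to lose its call there.

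**Figure D2:**
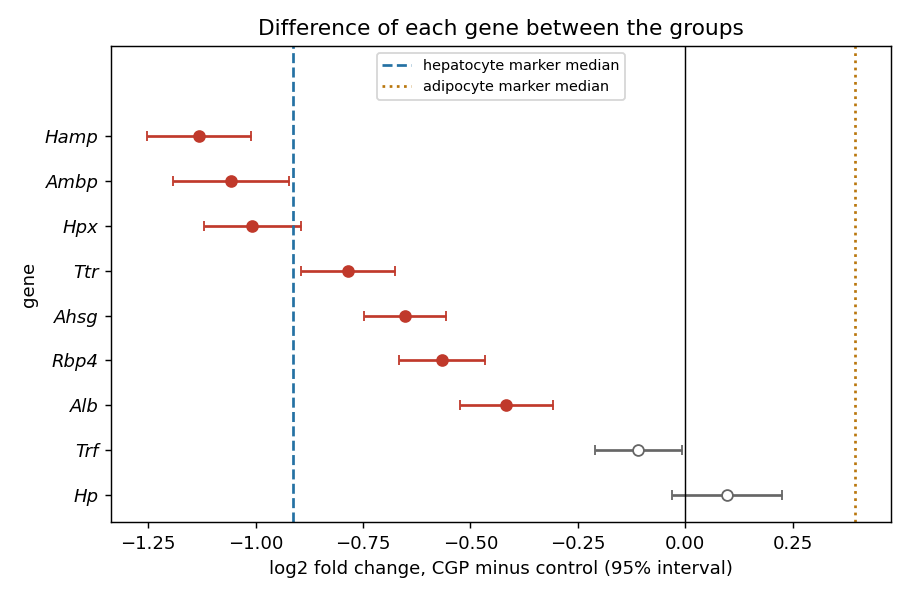
Differences of the 9 genes (vertical axis) as log2 fold changes, CGP minus control (horizontal axis), with individual 95% intervals, filled red where limma called a change and open where it did not, beside the medians of hepatocyte markers (dashed, -0.91) and adipocyte markers (dotted, 0.40). The genes spread from -1.13 for Hamp to 0.10 for Hp, and Trf and Hp are the open points nearest 0.

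The promoters of the 3 genes with the largest falls and of Alb, the gene with the smallest fall that was called, are given to show what sequence stands before genes that fell together. Of the 10 genes, 7 were searched in RefSeq promoters of build GRCm38.p6, with 8 start sites, and each sequence holds the 250 bases before the start, 5′ to 3′. Capitals mark matches on either strand to TATAAA (the box where the general transcription machinery binds), GTTAAT (part of the site of the liver factor HNF1), TTGCNNAA (C/EBP), TTCNNNGAA (STAT) or GGCGCC (the core of the element through which bone morphogenetic proteins act on hepcidin). No marked match overlaps another.
Hamp (chr7:30944030-30944279, minus strand): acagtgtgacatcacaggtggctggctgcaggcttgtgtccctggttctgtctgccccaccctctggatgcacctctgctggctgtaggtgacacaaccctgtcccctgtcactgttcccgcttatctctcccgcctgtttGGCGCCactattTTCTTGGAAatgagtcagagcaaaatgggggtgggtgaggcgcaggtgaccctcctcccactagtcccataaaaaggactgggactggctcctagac
Ambp (chr4:63154173-63154422, minus strand): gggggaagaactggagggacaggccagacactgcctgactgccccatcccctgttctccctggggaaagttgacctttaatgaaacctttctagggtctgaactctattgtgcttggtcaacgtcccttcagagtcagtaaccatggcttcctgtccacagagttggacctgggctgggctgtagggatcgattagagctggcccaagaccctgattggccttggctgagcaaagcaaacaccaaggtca
Hpx (chr7:105600117-105600366, minus strand): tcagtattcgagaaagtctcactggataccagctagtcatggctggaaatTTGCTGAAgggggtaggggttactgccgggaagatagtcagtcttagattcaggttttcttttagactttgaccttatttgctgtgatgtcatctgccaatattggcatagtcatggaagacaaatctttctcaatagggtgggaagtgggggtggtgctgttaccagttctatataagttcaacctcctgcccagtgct
Alb (chr5:90460620-90460869, plus strand): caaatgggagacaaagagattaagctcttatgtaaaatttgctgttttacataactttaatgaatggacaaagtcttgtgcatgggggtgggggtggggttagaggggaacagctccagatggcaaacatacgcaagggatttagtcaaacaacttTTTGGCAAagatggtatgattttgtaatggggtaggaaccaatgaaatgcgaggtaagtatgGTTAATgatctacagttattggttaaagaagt

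The hepcidin promoter held GGCGCC beginning 109 bases and the STAT motif TTCTTGGAA beginning 97 bases before the start. Elements of these kinds are known to carry bone morphogenetic protein and interleukin-6 signals to the hepcidin gene. None of the other searched promoters held either motif, and of all 32851 RefSeq promoters, 9.59% held GGCGCC and 7.02% the STAT motif. The C/EBP motif was found before 4 of the 7 genes (Ahsg, Alb, Hpx and Rbp4; 9.56% of all promoters), the HNF1 motif before Alb and Gc (6.43%) and TATAAA before Rbp4 (12.4%). The Ambp promoter held none of these letters in this window. A match is a description of the letters and shows no binding in these samples.

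Members of the iron pathway other than these genes were tested in the same fit. Of 43 tested iron genes of 46 listed, limma called 2, both lower, and 11 had an unadjusted p under 0.05, beside calls for 3.53% of all probe sets. The median difference over the list was 0.02. The 2 genes were Hamp2 and Tfr2, the transferrin receptor by which hepatocytes sense iron-loaded transferrin. Tfr2 measured 7.16, 7.22 and 7.32 in the controls and 6.99, 6.92 and 6.91 in the CGP group and fell by 0.29 (SE 0.06, limma adjusted p = 0.0304). The call held without control 1 and was lost without each of the other 5 arrays (adjusted p 0.0631 to 0.14), and 5 iron genes were called without control 1.

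Other regulators of hepcidin, chosen here after their values were seen, gave differences that did not pass. Hemojuvelin (Hjv), a co-receptor of bone morphogenetic proteins, differed by -0.37 (SE 0.09) and Tmprss6, the protease that removes it, by -0.30 (SE 0.07), with limma adjusted p of 0.0802 and 0.0746. Bmp6, the ligand that rises with iron stores, differed by 0.06 (SE 0.07, limma adjusted p = 0.667). Among genes of uptake, storage and export, the transferrin receptor Tfrc differed by 0.22 (limma adjusted p = 0.139, with 1 array under the array background), the exporter ferroportin (Slc40a1) by 0.01, the ferroxidase ceruloplasmin (Cp) by -0.00076 and the ferritin chains Fth1 and Ftl1 by 0.0016 and -0.0002. Ferritin has many processed copies in the genome, so its probe sets are uncertain. The receptors that clear the scavenger complexes did not pass either. Lrp1, for hemopexin, differed by 0.19 (limma adjusted p = 0.0824), and Cd163, for haptoglobin, lay under background on all 6 arrays (difference 0.10, limma adjusted p = 0.503). Hmox1, haem oxygenase, differed by 0.10 (limma adjusted p = 0.276).

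**Figure D3:**
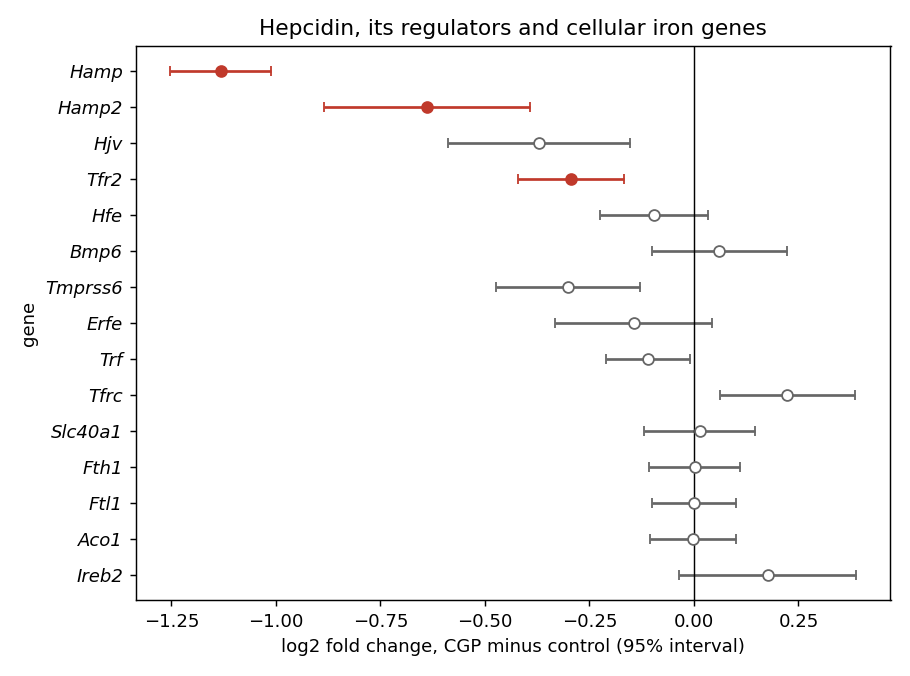
Differences as log2 fold changes, CGP minus control (horizontal axis), for Hamp, Trf and 13 further iron genes (vertical axis) with individual 95% intervals, filled red where limma called a change over all probe sets and open where it did not. Hamp, Hamp2 and Tfr2 are the filled points, and the ferritin chains Fth1 and Ftl1 lie at 0.

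Of 19 tested partners of the carriers and uptake receptors, from 36 listed, limma called 7 lower and 1 higher. Over all probe sets tested, 1.59% were called lower and 1.94% higher. The other 11 partners gave no call, and the median difference of the 19 was -0.12. Besides the Itih genes, Serpina6, the corticosteroid-binding globulin, fell by 0.72 (8.12 ± 0.14 in controls and 7.40 ± 0.12 in the CGP group, mean ± SD, n = 3 arrays each; limma adjusted p = 0.00319). Dio1, a deiodinase that activates thyroid hormone, was called lower (6.51 and 5.99) but lay under background on 5 of the 6 arrays. Crabp1, which binds retinoic acid inside cells, fell by 0.30 (limma adjusted p = 0.0352), and Rbp7, a cellular retinol-binding protein, rose by 0.30 (limma adjusted p = 0.0477). Crabp1 lost its call without control 2, control 3, CGP 2 or CGP 3 (adjusted p 0.0893 to 0.148), and Rbp7 without any array but control 3 (0.061 to 0.182). Stra6, the receptor for retinol-binding protein, differed by -0.03 (limma adjusted p = 0.724). Afp, Afm, Fcgrt, Lrp2 and Cubn were not analysed here.

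Haptoglobin and hemopexin rise, and albumin, transthyretin and fetuin-A fall, in the liver during inflammation. Of 15 tested genes of this acute phase response and its signalling, from 23 listed, limma called 1, which was lower. Over all probe sets tested, 1.59% were called lower. Of the 15 genes, 6 had an unadjusted p under 0.05, and the median difference of the 15 was -0.07. The gene called was Crp, C-reactive protein, which fell by 1.12 (7.97 ± 0.11 and 6.85 ± 0.07, mean ± SD, n = 3 arrays each; limma adjusted p = 0.000112). This fall lay within the range of the hepatocyte markers given below (-1.72 to 0.17). The part of an acute phase response in it was not tested.

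Markers of hepatocytes moved with the 7 genes. The counts below stand beside calls of 1.59% lower and 1.94% higher over all probe sets tested. Of 30 tested hepatocyte markers other than the 9 genes, of 35 listed, 29 fell and 1 did not pass, with a median of -0.91. The smallest adjusted p among them was shared by Apoa2, an apolipoprotein (-1.03), and Cps1, of the urea cycle (-1.20). Hgd, of tyrosine breakdown (-1.25), and Kng1, a kininogen (-1.05), shared it too. Of the 29, Slco1b2 (-0.38, limma adjusted p = 0.0378) lay under background on all 6 arrays, and Cyp7a1 and Cyp1a2 on 3. Their median level was 9.48 to 9.54 on the control arrays and 8.40 to 8.43 on the CGP arrays, and the log2 of their summed levels was 15.1 to 15.2 and 14.5 to 14.6. Of the 30 markers, 6 fell more than Hamp, 7 more than Ambp, 11 more than Hpx and 28 more than Alb, while Cyp2e1 (0.17, limma adjusted p = 0.0706), which did not pass, was the 1 marker above Trf and Hp. Markers of fat moved the other way. Of 16 tested adipocyte markers of 19 listed, 13 rose and 3 did not pass (Aqp7 by 1.02, Slc2a4 by 0.65 and Lpl by 0.67 had the smallest adjusted p), with a median of 0.40, a median level of 11.2 on control arrays against 11.5 to 11.6 on CGP arrays, and a log2 summed level of 15.7 against 16.1. Of 8 brown fat markers, 6 rose, among them Ucp1, the uncoupling protein of brown fat (1.22), Elovl3 (0.91) and Cox8b (0.54). The part of either cell type in the values of the 9 genes was not tested, and in such bulk RNA fewer cells of a type and less RNA per cell cannot be told apart.

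Markers of other cell types are given beside calls for 3.53% of all probe sets tested. Of the 10 adrenal cortex markers, 1 rose, Cyp11b2, aldosterone synthase (11.91 ± 0.07 and 12.41 ± 0.02, mean ± SD, n = 3 arrays each; difference 0.50, limma adjusted p = 0.00144). Of these 10, 2 had an unadjusted p under 0.05 and 0 had a difference below 0 (median 0.06). Of the 9 medulla markers limma called 0 (1 with an unadjusted p under 0.05). Of 10 macrophage markers, 5 kidney markers and 6 pancreas markers, limma called 0 (2, 0 and 1 with an unadjusted p under 0.05). Of the 10 macrophage markers, 2 lay under background on all 6 arrays, Clec4f and Marco, Kupffer cell markers named after their values were seen. Others lay above it on every array, among them Lyz2 (mean 11.57 in controls) and C1qb (10.92). The presence of Kupffer cells was not tested. Of 3 red cell markers, 1 rose, Alas2, the haem-synthesis enzyme of red cells (0.33, limma adjusted p = 0.00477), and of 6 Schwann and glial markers, 1 rose, Mbp, a myelin protein (0.24, limma adjusted p = 0.0312).

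**Figure D4:**
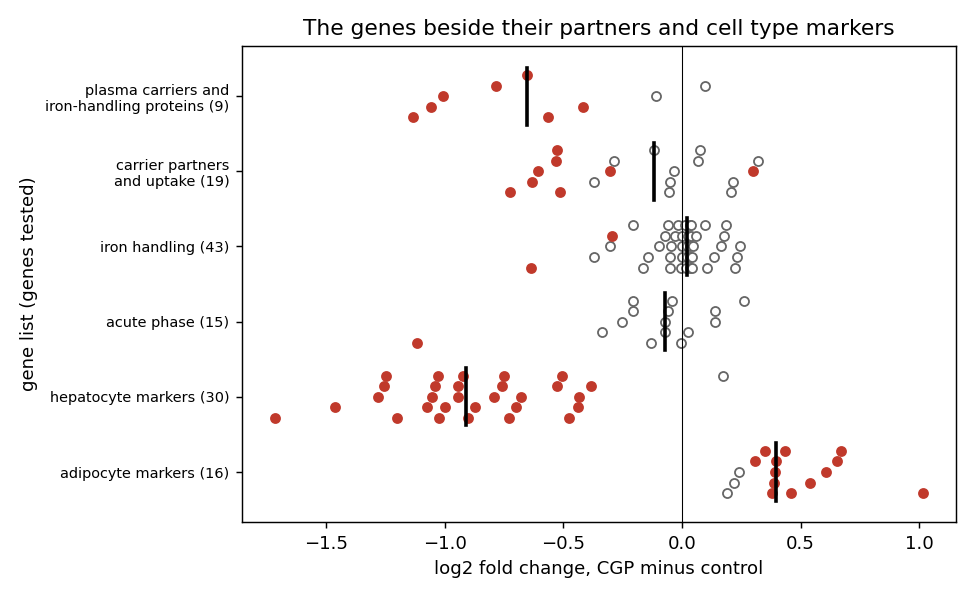
The horizontal axis gives log2 fold changes, CGP over control, for single genes, and the rows of the vertical axis are the 9 plasma carrier and iron-handling genes and 5 lists (genes tested in parentheses, points offset vertically for legibility). Red filled points were called by limma, open ones were not, and black bars are medians. The 9 genes have a median of -0.65, between that of the carrier partners (-0.12) and that of the hepatocyte markers (-0.91), while the iron handling genes centre on 0.02.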

How the data were processed

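Per the labels, adrenal RNA of 18 pooled mice per group was hybridised to Affymetrix whole-transcript arrays, 3 per group. The authors deposited log2 expression values of 25150 probe sets. The submitters' processing notes name RMA (background correction, quantile normalisation, probe set summary) and Partek, without versions, and the genome build is not given in the sources used here. Of the probe sets, 16769 had 1 gene symbol in the platform annotation, 1031 several and 7350 none. Those with a single symbol that reached log2 6 on 3 or more arrays entered the test (16034). CGP and control arrays were compared with limma 3.58.1 in R 4.3.3 (lmFit, eBayes, two-sided, no covariates), with Benjamini-Hochberg adjustment over all probe sets tested, and the test was checked on simulated arrays. SE is the moderated standard error. The brightest probe set stood for a listed gene. Array background was the 75th percentile of 127 sensory receptor probe sets (6.42 to 6.65). Intervals are 95%. No further normalisation was applied, arrays have no read depth, and their number limits the precision. All 10 genes and fixed iron and carrier genes were named whatever their values. Further genes were named by smallest adjusted p, up to 10 called genes per pathway list and up to 3 per cell type list, or more at a tie. The genes and lists were chosen with earlier results of these data known. Alternatives covered the filter, the probe sets, normalisation, array weights, the variance model, a replicate block, a minimum change and leaving out each array. Plots used matplotlib 3.10.9.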

Additional observations from a re-analysis of the deposited data

How the results depend on the processing

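The count of 7 lower genes held under the other filter, the other probe sets, both normalisations, array weights, the block and each array left out, with 6 at a minimum change of 1.2-fold (without Alb) and 8 with a variance trend and robust prior (with Trf). No difference of the 9 genes changed its direction under any of these 14 alternatives. The count over all probe sets, 566, was 348 with all probe sets tested, 1261 with the variance trend and robust prior, 1665 with array weights, 126 at 1.2-fold and 224 with the array number as a replicate block, and 236 to 1099 with 1 array left out. The 2 called iron genes became 0 with all probe sets tested, at 1.2-fold and with the replicate block, 8 with the variance trend and robust prior and 8 with array weights, and 0 to 5 with 1 array left out. The 8 called carrier partners became 13 with array weights and 4 at 1.2-fold. The 1 called acute phase gene became 4 with the variance trend and robust prior and 4 with array weights, and 1 to 2 with 1 array left out. The causes of these shifts were not tested. The array numbers do not pair the samples, since the deviations of same-numbered arrays correlated at -0.36, -0.17 and -0.12 and 0 of the 6 arrays correlated best with its own number. The replicate block left the 7 lower genes at 7 and the ratio of Hp to Hpx at 1.10. Among the genes named, signal under background on at least 1 array limits the tests of Dio1, Cd163, Tfrc, Slco1b2, Cyp7a1, Cyp1a2, Clec4f and Marco.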
